A study of Mus musculus with 15 samples.

Results

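Transcriptomes of B16-F10.1 melanoma metastases, grown in the lungs of mice, were compared between hosts fed a methionine-restricted diet (25% methionine, n = 3) and hosts fed a methionine-supplemented diet (300% methionine, n = 6). The 9 libraries were chosen by their diet label alone, out of 15 in the series, and all 9 entered the main fit. Values from fits without some libraries are marked as such. The other 6 libraries, 3 on a diet deficient in methionine and 3 on an adequate diet, lent their spread to the model and are shown at the end for context. B16-F10.1 is a pigmented line of the C57BL/6 background that forms lung colonies after injection into a vein. All hosts were male C57BL/6J mice, 8 weeks old, that carried 100000 tail-vein-injected cells for 21 days and then spent 2 weeks on their diet. The series' design text names the restricted, adequate and deficient diets, and the supplemented diet is known from the sample labels only. No label says whether each library came from its own mouse, and none gives a batch, a date or a pairing. The p-values therefore measure the spread between these libraries, which may be partly technical.

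Methionine is an essential amino acid that cells use for protein synthesis and, as S-adenosylmethionine, as the donor in most methylation reactions. After methyl transfer the remaining homocysteine is either methylated back to methionine, with folate as the usual methyl source, or passed on towards cysteine and glutathione. Cells that run short of an amino acid activate the kinase GCN2 and the transcription factor ATF4, which induces amino acid transporters and synthetic enzymes such as asparagine synthetase. Cells can also raise Mat2a mRNA, which encodes the S-adenosylmethionine synthetase of most tissues, when that product is scarce. In whole mice, a diet low in methionine is known for effects on liver lipid metabolism, insulin sensitivity and circulating FGF21.

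No gene differed between the diets at an adjusted p under 0.05. By edgeR's quasi-likelihood test, 0 of 16001 genes (0%) were called, and every adjusted p was 1. DESeq2 and limma-voom also called 0 genes. At an unadjusted p under 0.05 edgeR counted 349 genes (2.18%), of which 173 (1.08%) were higher and 176 (1.1%) were lower in restricted libraries. An even spread of p-values would place 800 genes there. Without adequate library 1, supplemented library 5 and deficient library 3 the count was 1184 of 16342. The shortfall was not present in that fit. DESeq2 counted 444 genes and limma-voom 352 genes at the same unadjusted threshold. Every restricted library lay above every supplemented one for 211 genes (1.32%), and below for 126 genes (0.787%). Across all genes tested the median log2 fold change, restricted minus supplemented, was -0.01, and 48.3% of the values were above 0. The words higher and lower are used for these values without a call.

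**Figure D1:**
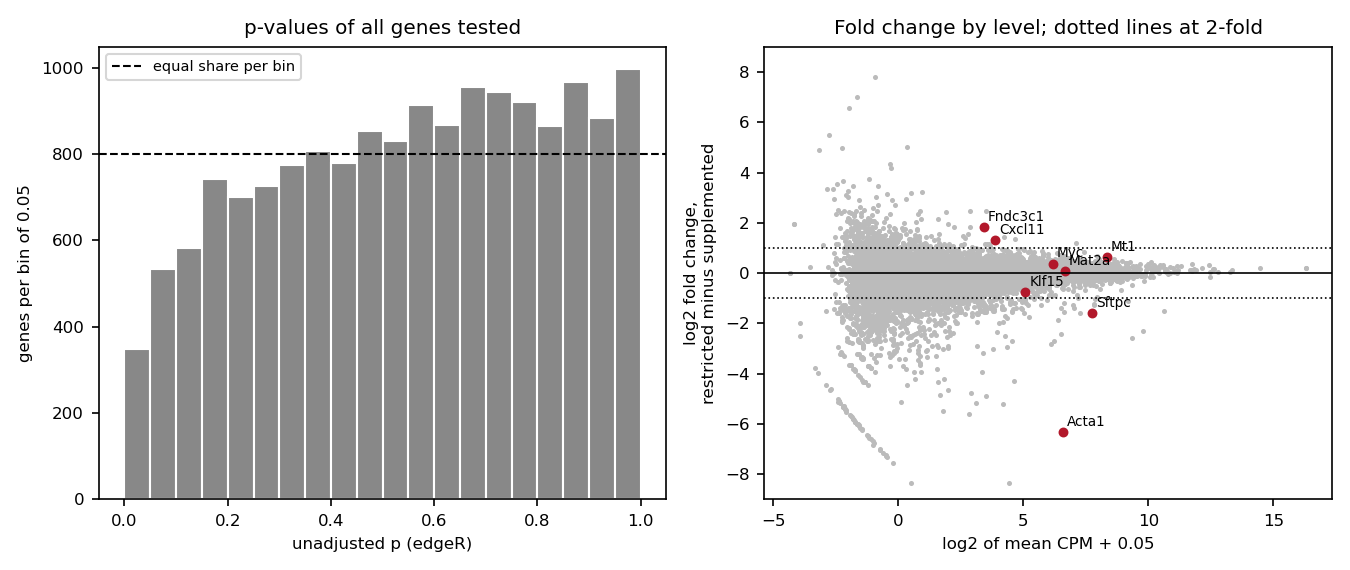
Left, the number of genes in each bin of unadjusted edgeR p, with the dashed line at an equal share of 800 genes per bin. Right, the log2 fold change (restricted minus supplemented) against the log2 of the mean CPM over the 9 libraries for 16001 genes. The first bin holds 349 genes, under the line, and the fold changes narrow around 0 as the level increases.

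The size of difference that these libraries could show depended on the level of the gene. The median standard error of a log2 fold change was 0.29 over all genes and 0.20 over the 5160 genes with a mean log2 CPM (the TMM-scaled read count in a library of 1000000) of at least 5. The 95% interval of the difference lay wholly within a 2-fold change in either direction for 9392 genes (58.7%). Among the 5160 genes of higher level it did so for 4894 (94.8%). For the remaining genes a 2-fold difference was not excluded at this depth and number of libraries.

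Libraries held 15209500 to 20687400 expected counts in the restricted group and 13107700 to 26362700 in the supplemented group. The 18 pairs of libraries within a group had Spearman correlations of 0.926 to 0.980 across genes. The chi-square statistic between their counts was 26.4 to 122 for each degree of freedom, far above sampling noise, and all 9 were counted separately. A pair of Ensembl IDs without a symbol and with identical counts held 10.6% to 19.7% of the counts of these 9 libraries, and 0 genes were called when these IDs and the structural RNAs were left out together.

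The libraries differed in the levels of markers of cells around the tumour. The labelled tissue showed its defining pigment genes: Tyr, the enzyme that starts melanin synthesis, had 711, 571 and 574 CPM in restricted libraries, and 503, 593 and 619 CPM as the lowest, median and highest of the supplemented ones. Alveolar type 2 cells, the surfactant-producing cells of normal lung, were summarised by the mean log2 CPM of 22 markers. That level was 4.41, 1.48 and 4.88 in the restricted libraries. It ran from 0.42 to 5.91, with a median of 4.99, in the supplemented libraries. The low values belonged to restricted library 2 and supplemented library 5, so both groups held a library with little alveolar signal. Sftpc, which encodes surfactant protein C, had 86.2, 2.32 and 181 CPM in restricted libraries, and 0.186 to 629 CPM with a median of 234 CPM in supplemented ones. Its log2 fold change was -1.61 with a 95% interval of -4.68 to 1.47. In bulk tissue, fewer cells of a type and less RNA per cell cannot be told apart.

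Of the 22 alveolar type 2 markers, 20 had a lower and 2 a higher fitted value in restricted libraries, with a median log2 fold change of -1.10, and 0 reached an unadjusted p under 0.05. The median was -0.63 without restricted library 2. Of the 17 alveolar type 1 markers, which mark the thin gas-exchange cells, 16 were lower, with a median of -1.27, or -0.81 without restricted library 2. Endothelial markers had a median of -0.21, or 0.15 with the alveolar covariate, and 24 of 30 were lower (median -0.55 without restricted library 1), and again 0 of either list reached that threshold. Vwf, a clotting factor made by endothelial cells, had 105, 71.2 and 87.5 CPM in restricted libraries, and a lowest, median and highest value of 102, 143 and 204 CPM in supplemented libraries. Calcrl, a receptor of endothelial cells, had 16.9, 4.49 and 22.7 CPM in restricted libraries, and 7.0, 38.7 and 76.6 CPM as lowest, median and highest in supplemented libraries. Both genes overlapped between diets, and the library with little alveolar signal was the lowest of the restricted group for each of them.

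Blood cell markers had lower medians in the restricted group. Of 13 neutrophil markers 12 were lower, 4 of them at an unadjusted p under 0.05 (1.1% of all genes). Their median log2 fold change was -1.42. It was the same with the 1 marker at 0 counts in a whole diet group set to the bound that 3 counts over the group allow. That median was -0.88 without restricted library 2 and -2.19 without restricted library 3. Csf3r, the receptor for granulocyte colony-stimulating factor, had 1.55, 1.06 and 4.87 CPM in restricted libraries, and 2.73, 6.57 and 15.3 CPM as lowest, median and highest in supplemented libraries (log2 fold change -1.54 ± 0.68 SE, 95% interval -3.00 to -0.09). The third restricted library lay within the supplemented range. Erythroid and platelet markers had a median of -1.24, or -0.69 with the alveolar covariate, with 12 of 14 lower. Itga2b, the platelet integrin chain also called CD41, had 1.33, 0.605 and 0.801 CPM in restricted libraries, and 1.86, 2.91 and 7.29 CPM in the same order in supplemented libraries. The groups did not overlap for Itga2b (log2 fold change -2.03 ± 0.82, 95% interval -3.77 to -0.29). The haemoglobin gene Hbb-bt had 4.04, 8.83 and 10.4 CPM in restricted libraries, and 8.45, 25.2 and 46.0 CPM in supplemented libraries, where the top of the restricted values passed the lowest supplemented one. Haemoglobin genes are near-identical copies, so the split of reads among them is uncertain.

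Macrophage and monocyte markers had a median of -0.16, with 24 of 31 lower. The median was -0.07 without restricted library 1 and -0.39 without restricted library 3. Lyz2, a lysozyme of macrophages that alveolar type 2 cells also make, had 116, 63.2 and 226 CPM in restricted libraries, and 87.8, 237 and 559 CPM as lowest, median and highest in supplemented libraries. Fibroblast and matrix genes had a median of -0.01, with 17 of 36 higher and 19 lower, and went both ways. Acta2, the smooth muscle actin of contractile fibroblasts, had 82.9, 55.6 and 44.7 CPM in restricted libraries, and 21.0, 29.4 and 54.7 CPM in supplemented libraries (0.85 ± 0.35, 95% interval 0.11 to 1.59). Col12a1, a fibril-associated collagen, had 27.9, 33.0 and 26.3 CPM in restricted libraries, and 31.0, 46.1 and 83.2 CPM in supplemented libraries (-0.74 ± 0.30, 95% interval -1.38 to -0.10). Thy1, a surface glycoprotein of fibroblasts and T cells, had 16.1, 11.8 and 12 CPM in restricted libraries, and 2.42, 6.6 and 15.5 CPM in supplemented libraries. All 3 overlapped between diets. Ddr2, a collagen receptor, differed by 0.05 on the log2 scale with an interval of -0.26 to 0.35.

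Muscle transcripts rested on a single library. The 16 muscle markers tested had a median log2 fold change of -2.14. Of them, 6 were lower at an unadjusted p under 0.05 (1.1% of all genes). Without supplemented library 5 the median was 0.21. In that library the skeletal muscle actin Acta1 had 845 CPM, against 0.605 to 3.10 CPM in the restricted libraries and a median of 0.341 CPM over the supplemented ones. The muscle creatine kinase Ckm had 152 CPM there, and the giant sarcomere protein Ttn had 549 CPM. The same library had the least alveolar signal. The part of cell content in the gene differences given next was not tested beyond a fit with the alveolar type 2 level as a covariate, which called 0 genes.

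**Figure D2:**
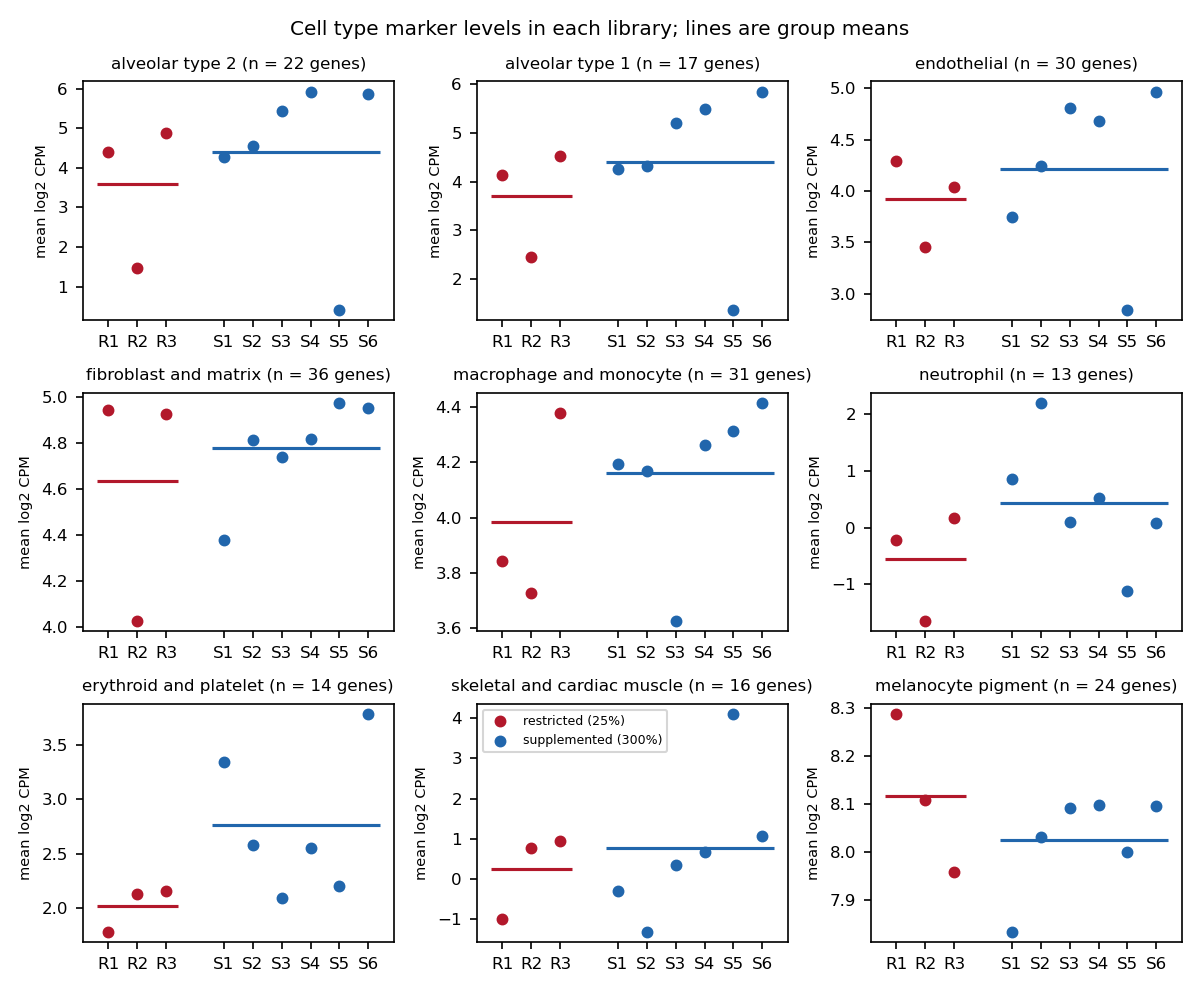
Mean log2 CPM of 9 marker lists in each library, restricted libraries R1 to R3 left of supplemented libraries S1 to S6, with a line at each group mean. R2 and S5 hold the lowest alveolar type 2 levels, 1.48 and 0.42, and S5 alone has a high muscle level of 4.10.

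The genes closest to the nutrient itself did not separate by diet. The methionine cycle and methyl supply list had a median log2 fold change of -0.03 over 24 tested genes, with 11 higher and 13 lower (0.09 without supplemented library 5), and for 17 of them the 95% interval excluded a 2-fold difference. Mat2a had 113, 99.0 and 99.3 CPM in restricted libraries, and 70.2, 101 and 120 CPM as lowest, median and highest in supplemented libraries. All restricted values lay inside the supplemented range. The difference was 0.07 on the log2 scale with an interval of -0.44 to 0.57, which excluded a 2-fold difference. The following enzymes of the cycle were chosen after their values were seen, to show its main steps. Ahcy, which splits S-adenosylhomocysteine, had 116, 105 and 102 CPM in restricted libraries, and 67.0, 91.1 and 132 CPM in supplemented libraries. Mtr, the methionine synthase that remethylates homocysteine, had 16.1, 9.89 and 14.4 CPM in restricted libraries, and 9.71, 13.8 and 18.5 CPM in supplemented libraries. The groups overlapped for each of these genes.

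Polyamine synthesis and methionine salvage draw on the same pool. Odc1, the first enzyme of polyamine synthesis, had 220, 241 and 212 CPM in restricted libraries, and 209, 259 and 386 CPM as lowest, median and highest in supplemented libraries. Srm, spermidine synthase, had 28.8, 35.8 and 36.4 CPM in restricted libraries, and 27.4, 36.8 and 58.8 CPM in supplemented libraries. Mtap, which returns methylthioadenosine to methionine and is lost in some human melanomas, averaged 106 ± 22.8 CPM in restricted libraries and 106 ± 29.4 CPM in supplemented libraries (SD). Their log2 fold changes were -0.30, -0.28 and -0.01, each with an interval that included 0. Bhmt, the betaine-dependent homocysteine methyltransferase of liver and kidney, was the single list member at an unadjusted p under 0.05, and it had 0, 1 and 39 counts in restricted libraries and 0 counts in every supplemented library. That value rests on 1 library, and no fold is given.

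Pathways that neighbour the cycle were read in the same way. Transsulfuration, glutathione and NRF2 genes had a median of -0.04, with 15 of 30 higher. Serine and folate one-carbon genes had a median of 0.08, with 16 of 19 higher and 0 at an unadjusted p under 0.05. With the alveolar covariate that median was -0.003. Genes of DNA, histone and RNA methylation had a median of 0.02, with 23 of 42 higher, 0 at that threshold and 37 with an interval inside a 2-fold change.

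**Figure D3:**
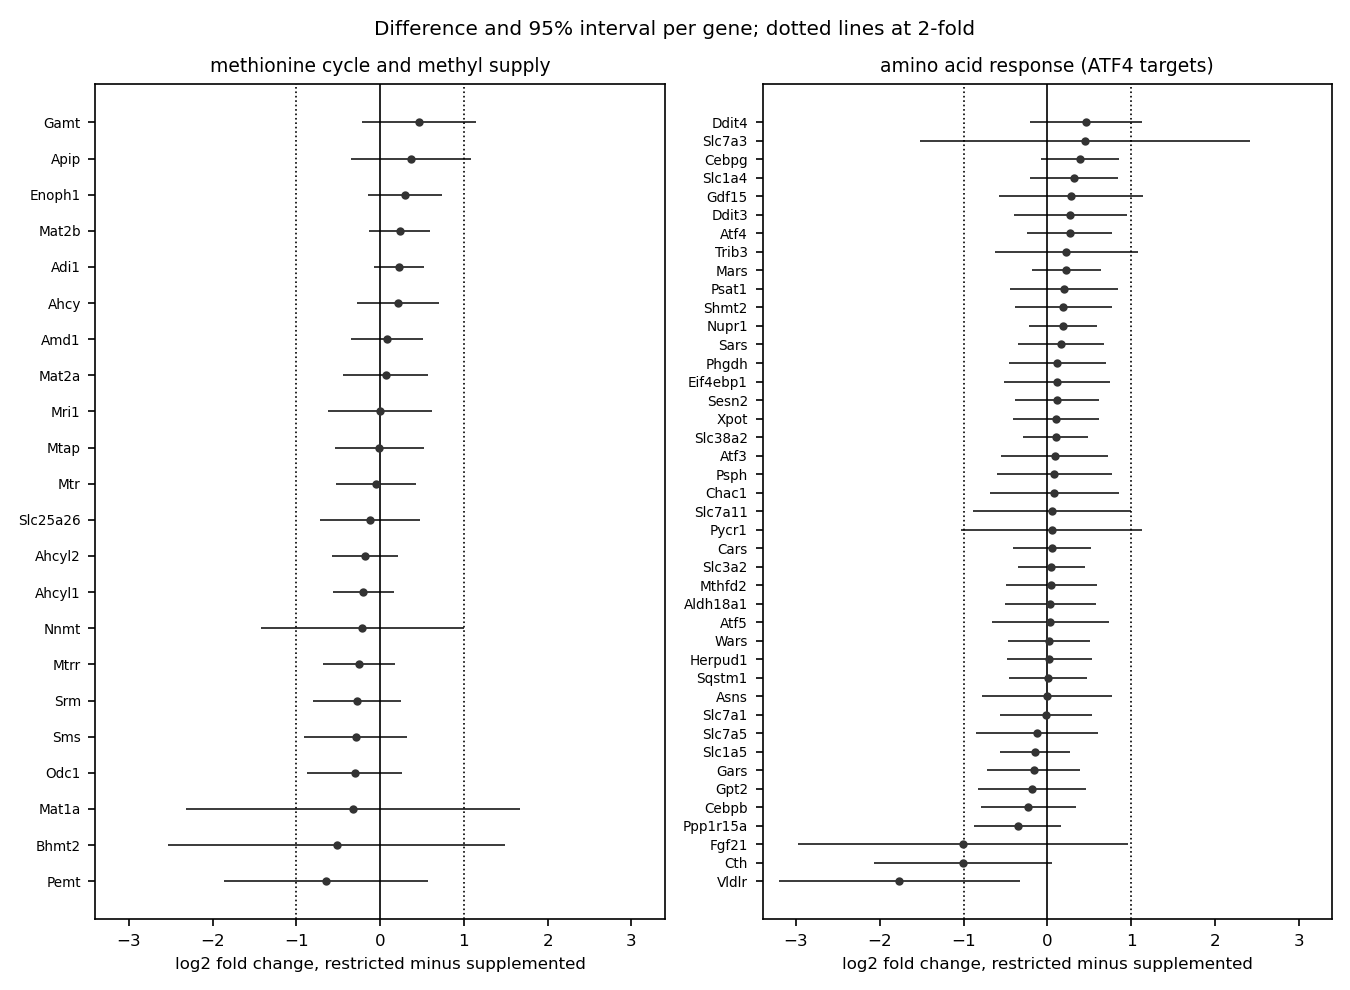
Log2 fold change (restricted minus supplemented) and its 95% interval for 22 methionine cycle genes (left) and 42 amino acid response genes (right), with dotted lines at a 2-fold difference. Most points lie near 0, with Mat2a at 0.07 and Asns at 0.00, and Vldlr is the single interval in either panel that does not cross 0.

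The amino acid response list, made of ATF4 targets, had a median log2 fold change of 0.07, with 31 of 42 genes higher, 11 lower and 34 intervals inside a 2-fold change. The median was -0.12 without restricted library 2, 0.20 without supplemented library 1 and -0.04 with the alveolar covariate. Asns, asparagine synthetase, had 100, 146 and 114 CPM in restricted libraries, and 71.3, 102 and 188 CPM as lowest, median and highest in supplemented libraries. Its difference was 0.00 on the log2 scale, with an interval of -0.78 to 0.77. Trib3, a pseudokinase that dampens ATF4 signalling, had 46.4, 63.9 and 39.8 CPM in restricted libraries, and 19, 36.5 and 83.4 CPM in supplemented libraries. Atf4 mRNA itself had 330, 570 and 321 CPM in restricted libraries, and 242, 324 and 492 CPM in supplemented libraries. Restricted library 2 was the highest of the restricted group for Asns, Trib3 and Atf4. It was also the highest for Ddit3, the stress factor CHOP, with 64.1 CPM against 58.8 CPM in the highest supplemented library. For Chac1, a glutathione-degrading ATF4 target, it had 52.5 CPM, with 25.1 and 26.1 CPM in the other restricted libraries. Atf4, Ddit3 and Chac1 were picked after their values were seen.

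Fgf21, the secreted hormone linked to methionine restriction in liver, varied within each diet. It had 2.99, 23.2 and 3.51 CPM in restricted libraries, and 1.37, 12.3 and 59.0 CPM as lowest, median and highest in supplemented libraries (log2 fold change -1.0, interval -2.98 to 0.97). Vldlr, a lipoprotein receptor and ATF4 target, was the list member that did not overlap: 1.44, 0.858 and 1.85 CPM in restricted libraries, and 2.42, 3.39 and 9.79 CPM in supplemented libraries. The log2 fold change of Vldlr was -1.77 ± 0.68 SE (95% interval -3.20 to -0.33). Both genes were described after their values were seen. Endoplasmic reticulum stress genes had a median of 0.07, and all 20 intervals lay inside a 2-fold change.

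The genes with the smallest p, among those that did not overlap between diets, were not called, and their values are given as a description. Fndc3c1 (ENSMUSG00000033737), an X-linked fibronectin-domain gene, had 25.0, 15.2 and 20.6 CPM in restricted libraries, and 3.78, 5.33 and 9.03 CPM as lowest, median and highest in supplemented libraries. It averaged 3.55-fold higher in restricted libraries (log2 fold change 1.83 ± 0.40 SE, 95% interval 0.97 to 2.69, edgeR adjusted p = 1). Cxcl11 (ENSMUSG00000060183), an interferon-induced chemokine that attracts CXCR3-bearing T cells, had 22.2, 22.5 and 27.3 CPM in restricted libraries, and 5.48, 8.80 and 17.8 CPM in supplemented libraries. Its log2 fold change was 1.31 ± 0.33 (95% interval 0.61 to 2.02). Rdh5 (ENSMUSG00000025350), a retinol dehydrogenase, had 6.03, 6.56 and 6.29 CPM in restricted libraries, and 2.23, 2.93 and 4.19 CPM in supplemented libraries (0.98 ± 0.29). In each of the 3 genes the lowest restricted library exceeded the highest supplemented one.

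The next 5 genes with higher restricted values differed by 0.46 to 0.98 on the log2 scale. Hcn2, a pacemaker ion channel, averaged 12.7 ± 2.44 CPM in restricted libraries and 6.46 ± 1.52 CPM in supplemented libraries (SD). Spata5, an ATPase of ribosome maturation, averaged 14.9 ± 2.18 CPM in restricted libraries and 7.95 ± 2.77 CPM in supplemented libraries. St3gal4, a sialyltransferase, averaged 44.2 ± 5.14 CPM in restricted libraries and 32.2 ± 3.04 CPM in supplemented libraries. Fbxw4, an F-box protein, and 4931406C07Rik, listed without a described role here, had log2 fold changes of 0.53 and 0.57.

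Among genes with lower restricted values, Riok3 (ENSMUSG00000024404), an atypical kinase, had the smallest p. It had 24.8, 31.2 and 31.4 CPM in restricted libraries, and 37.8, 44.0 and 50.7 CPM as lowest, median and highest in supplemented libraries (log2 fold change -0.60 ± 0.17 SE, 95% interval -0.95 to -0.25). Gda, the guanine deaminase of purine breakdown, had 6.74, 3.28 and 4.50 CPM in restricted libraries, and 7.15, 10.5 and 12.2 CPM in supplemented libraries (-1.09 ± 0.35). Kdm7a, a histone demethylase, averaged 29.6 ± 1.95 CPM in restricted libraries and 40.3 ± 6.21 CPM in supplemented libraries (SD). Wdr13, Rab1a, Gcnt1 and Tmem255a had log2 fold changes of -0.54, -0.37, -0.80 and -1.25, and Klf15, the other of the 8 genes, is described with the glucocorticoid-induced list. Rab1a is a GTPase of transport between the endoplasmic reticulum and the Golgi, and Gcnt1 a branching enzyme of mucin-type sugar chains.

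**Figure D4:**
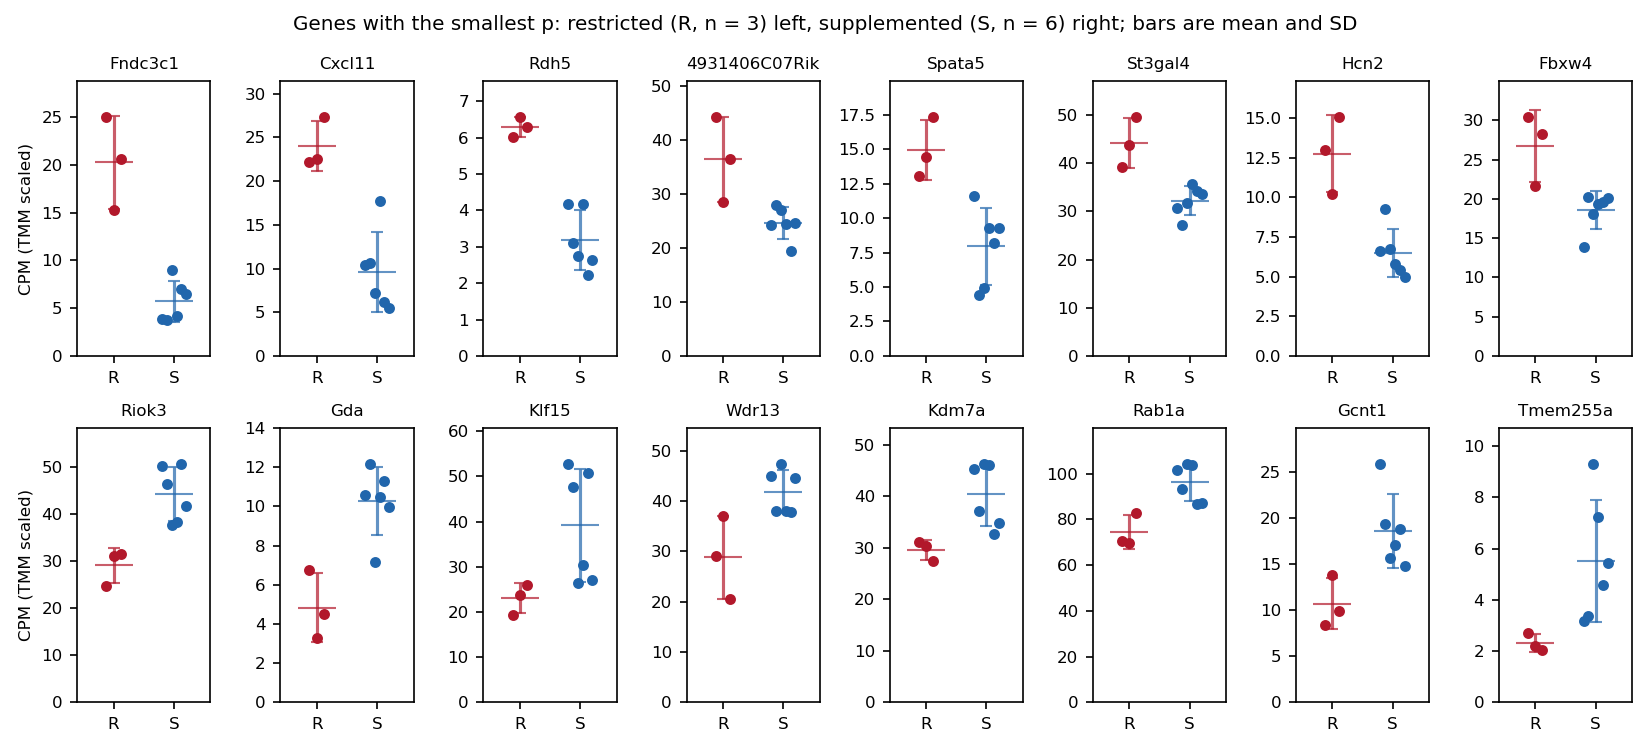
CPM in each library for the 8 genes with the smallest p in each direction (restricted higher, top; restricted lower, bottom), restricted left of supplemented, with mean and SD bars. The groups do not overlap in any panel because the genes were chosen so, and none has an adjusted p under 1.

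Genes that glucocorticoids induce were mostly lower in restricted libraries: 15 of 18 tested, with a median log2 fold change of -0.49, against -0.01 over all genes. Of the 18, 3 were lower and 2 higher at an unadjusted p under 0.05 (1.1% and 1.08% of all genes). The median ran from -0.59 to -0.40 over 16 other settings, and was -0.40 with the alveolar covariate. The mean log2 CPM of the list was 4.01, 3.38 and 3.84 in restricted libraries, and 3.81 to 4.72 in supplemented libraries. Restricted library 2 lay below the supplemented range, and restricted libraries 1 and 3 lay within it. Klf15 (ENSMUSG00000030087), a transcription factor that glucocorticoids induce and that drives amino acid breakdown in liver and muscle, had 19.3, 23.9 and 25.9 CPM in restricted libraries. In supplemented libraries its lowest, median and highest values were 26.4, 39.0 and 52.8 CPM (-0.77 ± 0.25 SE, 95% interval -1.29 to -0.24). Sgk1, a kinase of ion transport described after its values were seen, had 12.4, 14.1 and 11.4 CPM in restricted libraries, and 15, 20.8 and 26.8 CPM in supplemented libraries (-0.75 ± 0.35). Neither gene overlapped between diets, though the highest restricted value of Klf15, 25.9 CPM, was close to the lowest supplemented one, 26.4 CPM. Fkbp5 and Tsc22d3, widely used readouts of the glucocorticoid receptor, had log2 fold changes of -0.44 and -0.64, with intervals that included 0. Circadian clock genes had a median of -0.03, and Per1, which is also on the glucocorticoid list, a log2 fold change of -0.64 with an interval of -1.73 to 0.45.

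The 2 members of that list that were higher at an unadjusted p under 0.05 were the metallothioneins, small cysteine-rich proteins that bind zinc and copper and respond to both metals and glucocorticoids. Mt1 had 511, 476 and 285 CPM in restricted libraries, and 244, 271 and 316 CPM as lowest, median and highest in supplemented libraries (0.62 ± 0.20 SE, 95% interval 0.19 to 1.06). Mt2 had 229, 227 and 116 CPM in restricted libraries, and 98.4, 132 and 158 CPM in supplemented libraries (0.56 ± 0.23). For both genes, restricted libraries 1 and 2 lay above all supplemented libraries and library 3 lay among them. Their promoters are shown because both genes had the same order of libraries within the restricted group. They span 250 bases before to 50 bases after the start of each gene, from RefSeq on build GRCm38.p6, which is not the build of the counts, and were matched by symbol. Mt2 lies at chr8:94172368-94172667 and Mt1 at chr8:94178839-94179138, both on the plus strand. Capitals mark the core of the metal response element, searched as TGCACNC or TGCGCNC on both strands.

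Mt2: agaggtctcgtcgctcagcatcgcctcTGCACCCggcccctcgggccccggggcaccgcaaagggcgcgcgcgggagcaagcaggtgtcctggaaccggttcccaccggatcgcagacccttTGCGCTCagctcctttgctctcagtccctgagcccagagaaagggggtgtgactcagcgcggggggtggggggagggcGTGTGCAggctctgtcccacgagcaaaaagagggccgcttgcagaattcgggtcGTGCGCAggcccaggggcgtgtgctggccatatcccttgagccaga
Mt1: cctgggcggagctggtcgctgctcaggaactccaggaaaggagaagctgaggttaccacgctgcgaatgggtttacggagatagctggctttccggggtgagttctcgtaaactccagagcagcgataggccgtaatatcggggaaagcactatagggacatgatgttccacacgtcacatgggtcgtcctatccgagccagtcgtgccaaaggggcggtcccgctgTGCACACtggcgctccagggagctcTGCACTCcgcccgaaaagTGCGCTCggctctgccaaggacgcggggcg

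The Mt2 window held 4 matches and the Mt1 window 3. At least 1 match stood in 25.7% of 32851 mouse promoter windows of this length, at least 2 in 7.11% and at least 3 in 1.97%. A match describes the letters and shows no binding.

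Cold-inducible RNA-binding genes, which vary with body temperature and time of day, had a median of -0.17, with 4 of 5 lower, and of -0.05 without supplemented library 5. Rbm3 had 135, 264 and 180 CPM in restricted libraries, and 194, 283 and 431 CPM as lowest, median and highest in supplemented libraries (-0.65 ± 0.29 SE, 95% interval -1.27 to -0.03). Cirbp had 5.92, 9.23 and 7.83 CPM in restricted libraries, and 7.83, 10.2 and 15 CPM in supplemented libraries (-0.50, interval -1.25 to 0.26). Both overlapped between diets. Immediate early genes had a median of -0.08, with 14 of 18 lower. Of these, 1 was at an unadjusted p under 0.05 (1.1% of all genes).

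Interferon response genes had the list median farthest above 0 among lists with all members detected in both diets. Of 41 tested, 38 were higher and 3 lower in restricted libraries, with a median log2 fold change of 0.44, against 48.3% of all genes higher. Of the 41, 9 were higher at an unadjusted p under 0.05 (1.08% of all genes), 0 were lower, and 5 had every restricted library above every supplemented one (1.32% of all genes). The median ran from 0.18 to 0.56 over 16 other settings, with the lowest value when restricted library 3 was left out, and was 0.49 with the alveolar covariate. The mean log2 CPM of the list was 5.72, 5.68 and 6.43 in restricted libraries, and 5.34 to 6.02 with a median of 5.41 in supplemented libraries. Restricted library 3 was the highest of the 9 libraries and the other restricted libraries lay within the supplemented range.

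Irgm2 (ENSMUSG00000069874) and Irgm1 (ENSMUSG00000046879) encode immunity-related GTPases that act against intracellular pathogens. Irgm2 had 74.2, 63.7 and 108 CPM in restricted libraries, and 41.3, 54.0 and 63.1 CPM as lowest, median and highest in supplemented libraries (0.62 ± 0.21 SE, 95% interval 0.17 to 1.07). Irgm1 had 163, 107 and 160 CPM in restricted libraries, and 64.5, 94.2 and 127 CPM in supplemented libraries (0.59 ± 0.22). Rtp4, an interferon-induced regulator of receptor trafficking and antiviral signalling, had 63.2, 48.9 and 61.2 CPM in restricted libraries, and 23.1, 37.6 and 47.0 CPM in supplemented libraries (0.65 ± 0.24). Irgm2 and Rtp4 did not overlap between diets, and for Irgm1 restricted library 2 lay inside the supplemented range. The RNA sensor regulator Dhx58, the apoptosis factor Xaf1 and the interferon signalling factor Irf9 were the other non-overlapping members, with log2 fold changes of 0.81, 0.55 and 0.44. These 3 were picked after their values were seen.

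The promoters of both GTPases are shown because both genes are known interferon targets and lead the list by p. The windows are cut as for the metallothioneins: Irgm2 at chr11:58214727-58215026 on the plus strand and Irgm1 at chr11:48871371-48871670 on the minus strand, GRCm38.p6. Capitals mark the core of the interferon-stimulated response element, searched as GAAANNGAAA on both strands.

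Irgm2: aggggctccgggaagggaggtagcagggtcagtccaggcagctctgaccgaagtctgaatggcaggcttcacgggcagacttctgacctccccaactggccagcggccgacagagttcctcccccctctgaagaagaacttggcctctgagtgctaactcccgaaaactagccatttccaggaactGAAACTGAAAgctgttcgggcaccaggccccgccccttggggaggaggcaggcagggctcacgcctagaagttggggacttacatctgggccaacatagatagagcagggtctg
Irgm1: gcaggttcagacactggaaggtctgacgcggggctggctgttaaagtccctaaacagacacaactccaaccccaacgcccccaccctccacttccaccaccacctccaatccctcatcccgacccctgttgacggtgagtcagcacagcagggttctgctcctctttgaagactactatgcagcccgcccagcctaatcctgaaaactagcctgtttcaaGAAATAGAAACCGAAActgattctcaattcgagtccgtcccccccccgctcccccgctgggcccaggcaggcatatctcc

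Irgm2 held 1 match and Irgm1 held 2 overlapping ones. A match stood in 3.44% of the 32851 windows and at least 2 in 0.225%.

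Genes of MHC class I presentation, which interferons also induce, had a median of 0.21, with 17 of 21 higher. Of these, 2 were at an unadjusted p under 0.05 (1.08% of all genes). The median was -0.01 without restricted library 3. Those of MHC class II had a median of -0.16, with 4 of 13 higher, and the sign of that median changed with the library left out. With the alveolar covariate it was 0.13. Levels of T and NK cell markers overlapped widely, at -0.31, -1.47 and 0.68 mean log2 CPM in restricted libraries and -1.0 to 0.56 in supplemented libraries. Of these 28 markers 12 were higher and 16 lower, with a median log2 fold change of -0.12, or 0.21 with the alveolar covariate and -0.96 without restricted library 3. Restricted library 3 had the highest interferon, MHC class I and T and NK cell levels of the restricted group, and the part of immune cell content in the interferon values was not tested.

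Cholesterol synthesis and uptake genes, the targets of the sterol-sensing factor SREBP2, were higher in restricted libraries for 20 of 23 tested, with a median log2 fold change of 0.22. Of the 23, 5 were higher and 0 lower at an unadjusted p under 0.05 (1.08% and 1.1% of all genes). The median ran from 0.13 without restricted library 1 to 0.35 without restricted library 3. Sqle, squalene epoxidase, had 138, 123 and 88.7 CPM in restricted libraries, and 59.6, 82.7 and 92.2 CPM as lowest, median and highest in supplemented libraries (0.54 ± 0.21 SE, 95% interval 0.09 to 0.99). It overlapped through restricted library 3 alone. Dhcr7, the last enzyme of the pathway, had 112, 64.1 and 57.2 CPM in restricted libraries, and 50.4, 59.9 and 62.1 CPM in supplemented libraries. The first restricted library lay above the supplemented ones by far more than the second, and the third lay among them.

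Hypoxia and glycolysis genes were higher for 33 of 36, with a median of 0.32. Of these, 2 were at an unadjusted p under 0.05 (1.08% of all genes). The median was 0.18 without restricted library 2 and 0.49 without restricted library 3. The list level was 7.56, 7.68 and 7.04 mean log2 CPM in restricted libraries, and 6.74 to 7.45 with a median of 7.20 in supplemented libraries, so restricted libraries 1 and 2 were above all supplemented ones and library 3 was not. Pdk1, a mitochondrial kinase that inhibits pyruvate dehydrogenase, had 144, 155 and 86.1 CPM in restricted libraries, and 71.6, 85.6 and 121 CPM as lowest, median and highest in supplemented libraries (0.49 ± 0.24). P4ha1, a collagen prolyl hydroxylase, had 152, 154 and 114 CPM in restricted libraries, and 66.8, 97.5 and 125 CPM in supplemented libraries (0.50 ± 0.23). Egln3, the oxygen sensor that marks HIF for destruction and is itself induced by it, had 4.53, 7.92 and 6.29 CPM in restricted libraries, and 1.70, 3.68 and 5.63 CPM in supplemented libraries (0.83 ± 0.38). Oxidative phosphorylation genes of the nucleus had a median of 0.01, and all 40 intervals lay inside a 2-fold change.

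Genes of G2/M and mitosis were higher in restricted libraries for 40 of 41 tested, by a small amount: the median log2 fold change was 0.21, and all 41 intervals lay inside a 2-fold change. Of these, 2 were higher at an unadjusted p under 0.05 (1.08% of all genes), and the median was 0.12 with the alveolar covariate. The mean log2 CPM of the list was 5.64, 5.80 and 5.78 in restricted libraries, and 5.33 to 5.76 in supplemented libraries. Restricted library 1 lay within the supplemented range. Cdca2, a chromosome-associated phosphatase subunit chosen after its values were seen, had 44.4, 47.2 and 48.5 CPM in restricted libraries, and 25.6, 35.3 and 40.3 CPM as lowest, median and highest in supplemented libraries (0.47 ± 0.18). The proliferation marker Mki67 had 197, 206 and 228 CPM in restricted libraries, and 166, 191 and 240 CPM in supplemented libraries. Its difference was 0.07 on the log2 scale, with an interval of -0.48 to 0.62. Genes of G1/S and DNA replication had a median of 0.06 with 29 of 42 higher. That median was -0.009 with the alveolar covariate and 0.18 without supplemented library 5.

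Myc, the growth-promoting transcription factor, did not overlap between diets, at 83.4, 92.1 and 78.5 CPM in restricted libraries, and 48.7, 69.6 and 74.3 CPM in supplemented libraries (0.37 ± 0.15 SE, 95% interval 0.06 to 0.68). Its targets in ribosome biogenesis did not follow the same sign: 19 of 25 were lower, with a median of -0.14 and 0 at an unadjusted p under 0.05. That median was -0.01 without supplemented library 5. The remaining Myc and Max network had a median near 0, at 0.01 over 12 genes with Myc included. Cytosolic ribosomal protein genes had a median of 0.04, with 28 of 39 higher. That median was -0.02 with the alveolar covariate and 0.15 without supplemented library 5.

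Pigment genes of the tumour had a median of 0.12, with 17 of 24 higher and 22 intervals inside a 2-fold change. The median was 0.03 without restricted library 1. Tyr differed by 0.09 on the log2 scale, with an interval of -0.32 to 0.50. Rab38, a GTPase that delivers enzymes to the melanosome, was the non-overlapping member: 325, 325 and 378 CPM in restricted libraries, and 232, 248 and 304 CPM in supplemented libraries (0.43 ± 0.20). Rab38 was described after its values were seen. Melanocyte lineage regulators had a median of -0.02, with 10 of 20 higher.

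The remaining lists were p53 targets, with a median of -0.20 and 16 of 22 lower, heat shock genes (-0.03, 7 of 16 higher) and mitochondrially encoded genes (-0.12, 6 of 13 higher). Without supplemented library 5 the p53 median was -0.11 and the mitochondrially encoded one -0.31, and with the alveolar covariate the mitochondrially encoded one was 0.30. B and plasma cell markers had a median of -0.45 with 10 of 14 lower, airway epithelium markers -0.21 with 9 of 16 lower, and adipocyte and mesothelial markers -0.33 with 6 of 8 lower. With the alveolar covariate these 3 medians were -0.03, 0.94 and 0.57, and without restricted library 3 they were -1.09, -1.08 and -1.66. Of the airway markers, 2 were higher and 0 lower at an unadjusted p under 0.05 (1.08% and 1.1% of all genes). Liver-secreted protein genes had a median of 0.82 over 10 genes. Of these, 3 had 0 counts in a whole diet group. With those set to the bound that 3 counts over the group allow, the median was 0.16. The mean log2 CPM of the list was 0.10, -0.79 and -0.98 in restricted libraries and -1.53 to 0.07 in supplemented ones. Its member Trf was well expressed, at 286, 278 and 269 CPM in restricted libraries and 176 to 269 CPM in supplemented ones.

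Placing the pair among all 4 diets shows where these values stand on the scale of the series. At an unadjusted edgeR p under 0.05 the same fit counted 15.1% of genes for deficient against adequate, 9.17% for restricted against adequate, 9.77% for supplemented against adequate, 7.44% for deficient against restricted and 5.45% for deficient against supplemented. The 2.18% for restricted against supplemented was the lowest of the 6 shares in this fit. Without adequate library 1, supplemented library 5 and deficient library 3 this pair counted 1184 of 16342 genes. The other pairs were not refitted without those libraries, so the rank is known for the main fit only. The 6 comparisons share libraries and differ in their number, and the difference between the shares was not tested.

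Klf15 had 32.7 to 37.5 CPM in deficient, 19.3 to 25.9 CPM in restricted, 63.9 to 98.8 CPM in adequate and 26.4 to 52.8 CPM in supplemented libraries. Its values on the restricted and supplemented diets were both below every adequate library. Rbm3 had 168 to 318, 135 to 264, 517 to 558 and 194 to 431 CPM in deficient, restricted, adequate and supplemented libraries in that order, again with adequate libraries on top. Myc had 35.7 to 46.2 CPM in deficient, 78.5 to 92.1 CPM in restricted, 40.4 to 43.7 CPM in adequate and 48.7 to 74.3 CPM in supplemented libraries. For Myc, the restricted and supplemented libraries were all above the deficient and adequate ones. Cxcl11 had 9.12 to 21.8 CPM in deficient and 12.6 to 15.9 CPM in adequate libraries, and the restricted ones, at 22.2 to 27.3 CPM, were the highest of the 15. None of these genes followed the methionine content of the diets step by step. The genes were picked for this view after their values were seen.

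**Figure D5:**
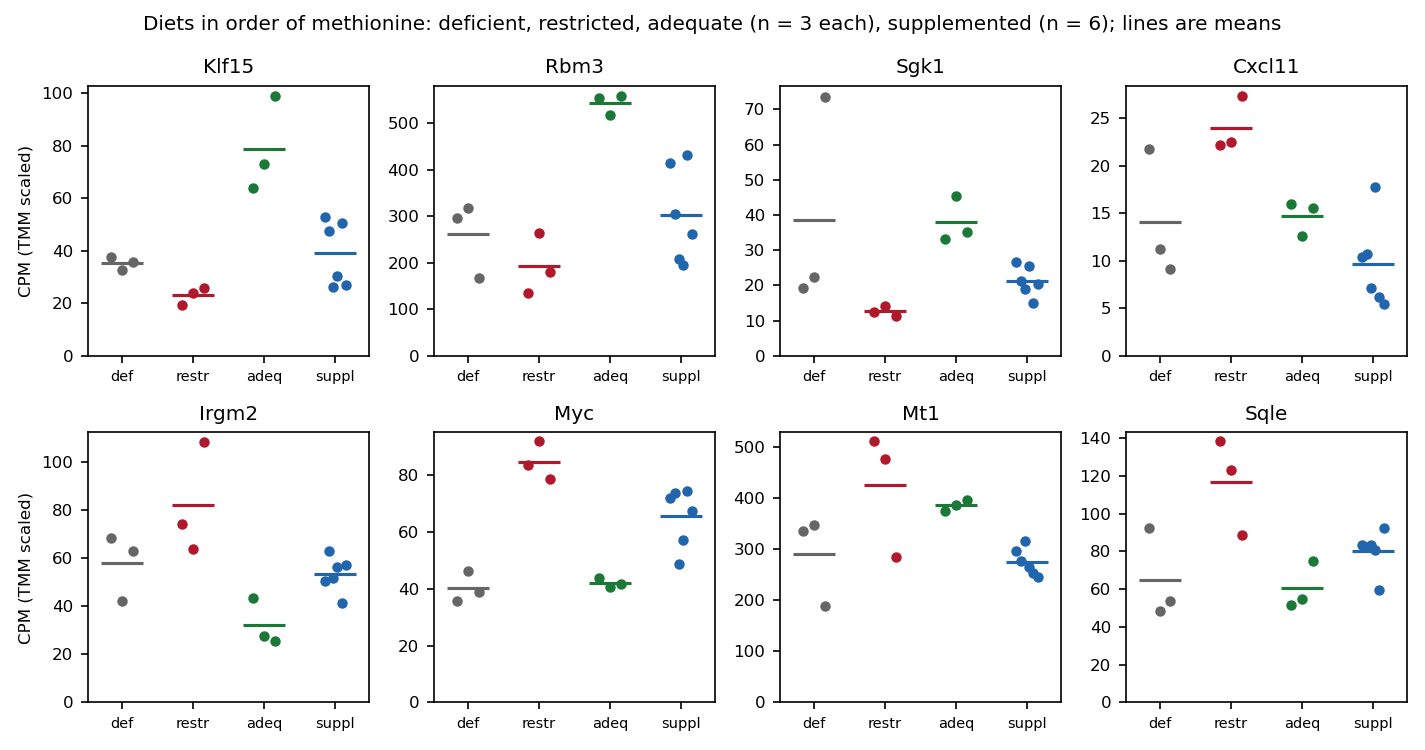
CPM of 8 genes in all 15 libraries, diets from low to high methionine, with a line at each mean. Klf15 and Rbm3 are highest in adequate libraries, while Myc is higher in restricted and supplemented libraries than in deficient and adequate ones.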

How the data were processed

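RNA was depleted of ribosomal RNA and made into libraries with a strand-marking total RNA kit, per the labels' protocols. The deposited files list 37620 Ensembl IDs with their expected counts, which are RSEM's estimates of reads per gene. Bowtie2 2.2.9, RSEM 1.30, edgeR and build NCBIM37 are named per the submitters' processing notes. Not given in the sources used here are the strand setting, read filters and annotation release, so overlapping genes on opposite strands and near-identical gene copies are uncertain. Symbols were matched by ID for 32897 IDs.

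The expected counts were rounded to whole numbers and fitted with edgeR 4.0.16 (R 4.3.3) by the quasi-likelihood test over all 15 libraries, with a mean per diet, TMM scaling, filterByExpr (16001 genes kept), 11 residual degrees of freedom and a biological coefficient of variation of 0.461. P-values were adjusted by Benjamini-Hochberg over all 16001 genes at 0.05. CPM values are TMM-scaled, and the mean log2 CPM of a list uses a prior count of 2. Intervals are at 95% and come from the fit, and ± is the standard error unless SD is named. Alternatives were limma-voom (limma 3.58.1), DESeq2 1.42.0, other scaling, filters, samples, an alveolar covariate and single libraries left out. The edgeR and DESeq2 tests were run on simulated data with known changes. Both missed most of the 2-fold changes and called some unchanged genes.

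Genes named by rule were the 8 with the smallest p in each direction among those with a symbol, a mean log2 CPM of at least 1 and no overlap, with up to 3 members from each list and a few fixed markers. Not every gene the rule takes is described. The 39 lists hold 966 entries, of which 956 matched and 920 were tested. The members, lists and rule were chosen with earlier results of these data known. Every list was described by counts and its median. Promoters of 4 genes were taken from a RefSeq table of build GRCm38.p6 by symbol, and all 4 matched. Sequencing depth limits low genes most, and intervals cover the spread between libraries only. Some genes of the lists are counted but not reported here by name.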

Additional observations from a re-analysis of the deposited data

Results flagged for a closer look

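Values of the 6 supplemented libraries were checked for a library far from the other 5, by the gap to its nearest neighbour over the range of the group. Of 104 groups tested (39 list levels and 65 genes) 16 were flagged. Chance flags about 1 in 20 groups of normal spread. The genes were partly chosen on these data and many belong to the lists, so the 16 flags cannot be set against that rate. Supplemented library 5 accounted for 11 of the 16, library 1 for 2, library 3 for 2 and library 2 for 1. The restricted group, with 3 libraries, was too small for this check.

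Supplemented library 5 stood low in lung markers, with a mean log2 CPM of 0.4202 for alveolar type 2 genes, where the nearest library had 4.274, and of 1.378 for alveolar type 1 genes, where the nearest had 4.251. It stood high in muscle genes, with 845.5 CPM of Acta1, 151.8 CPM of Ckm and 549.1 CPM of Ttn. It was also high in cytosolic ribosomal protein genes, at a mean log2 CPM of 7.686, and in Thy1, at 15.5 CPM. The same library was low in mitochondrially encoded genes, at 6.379 mean log2 CPM, in circadian clock genes, at 3.064, in Sqle, at 59.57 CPM, and in Lcn2, a neutrophil and epithelial secreted protein, at 5.083 CPM.

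Supplemented library 3 was low in macrophage and monocyte genes, at 3.628 mean log2 CPM, and high in liver-secreted protein genes, at 0.06515. Supplemented library 1 was low in pigment genes, at 7.835 mean log2 CPM, and in Fbxw4, at 13.88 CPM. Supplemented library 2 was high in Csf3r, at 15.35 CPM. The causes were not tested.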

How the results depend on the processing

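Each of the 18 alternatives to the main fit called 0 genes, as the main fit did. Genes at an unadjusted p under 0.05 numbered 349 in the main fit and 337 with other size factors, 736 of 23560 without the filter on low counts, 566 of 15141 with the 9 libraries alone, 639 with the alveolar type 2 level as a covariate and 1184 of 16342 without adequate library 1, supplemented library 5 and deficient library 3. They numbered 273 to 418 with a single library left out, and 347 without structural RNAs and the 2 largest unnamed IDs, an alternative chosen after seeing the data. Of 65 genes, 54 kept the sign of their log2 fold change in every alternative. The other 11 changed sign in 32 cases, none with a call. Many of the 65 were named for a small p or for no overlap in these data. That choice favours a kept sign, so the count of 54 is no test of stability. With a single library left out, Mat2a ran from -0.01376 to 0.1302, Mtr from -0.1999 to 0.1367, Mtap from -0.1719 to 0.14, Asns from -0.1592 to 0.17, Atf4 from -0.05122 to 0.4133, Chac1 from -0.3463 to 0.2711, Tyr from -0.02033 to 0.1504 and Ddr2 from -0.04241 to 0.1287. Acta1 ran from -7.054 to 1.737, Ckm from -2.765 to 1.898 and Ttn from -3.361 to 0.1145, with the highest value of each without supplemented library 5. Without the 3 libraries named above Mtr had 0.03602, Mtap 0.08864, Asns 0.07341, Acta1 1.729, Ckm 1.879, Ttn 0.08806 and Ddr2 -0.02861. With limma-voom Mtap had 0.01278, Asns 0.05557, Acta1 0.3687 and Ckm 0.9842, and with the alveolar covariate Chac1 had -0.03033. The cause was not tested. No paired analysis was possible because the labels carry no replicate numbers, and the numbers used here follow accession order only.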
